A study of Mus musculus with 9 samples.

Results

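Intervention group B was compared with experimental group A in HT22, an immortalised mouse hippocampal cell line, by mRNA sequencing. The comparison used 6 of the 9 libraries of the study, chosen by the group named in each sample's label, with 3 libraries in each group. The other 3 libraries, of control group C, are given as levels beside the comparison. They also entered the fit, where they help to estimate the spread.

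All 9 libraries came from the same line, and no genotype, time or dose is named in the labels. Hemin, which is heme with its iron oxidised, and PPP8, a bioactive micelle, are named in the title of the study, but no label states which cultures received either of them. The groups therefore keep the names experimental, intervention and control. HT22 is a single immortalised line, and no label states that replicates were grown as separate cultures. The p-values accordingly measure the spread between libraries, which may be technical.

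Cystine enters cells through system xc-, a pair of membrane proteins: Slc7a11 is the transporter chain and Slc3a2 the heavy chain that holds it at the surface. Inside the cell cystine is reduced to cysteine, the limiting building block of glutathione, which the enzyme Gpx4 uses to reduce lipid peroxides. In the hippocampal line used here, block of this transporter by glutamate is a classical way to deplete glutathione. Misfolded protein releases the transcription factor HSF1, which switches on the chaperones of the HSP70 and HSP90 families. Shortage of amino acids or stress in the endoplasmic reticulum acts through the factor ATF4 in the integrated stress response, and electrophiles and heme act through NRF2. Growth factor and stress signals reach the immediate early genes through MAP kinases, while mitotic genes are switched on late in the cell cycle.

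Values are FPKM as the authors deposited them, a measure that divides fragments by gene length and by library size. Differences are intervention minus experimental on the log2(FPKM + 1) scale, which understates the change of low genes. A gene was tested where it reached 1 FPKM in at least 3 of the 9 libraries. It was called at an adjusted p under 0.05 with limma, adjusted over all 11974 genes tested, and every adjusted p below is from that fit. The verbs rose and fell are used only of called genes.

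FPKM summed to 316912 to 339943 per library, mitochondrial genes held 16.5% to 18.3% of it, and the number of reads behind a value is unknown. Libraries differed in 2 sets of trace transcripts. For 30 liver transcripts, such as albumin, chosen after their values were seen, summed FPKM was 0.580, 0.370 and 27.0 in experimental replicates 1 to 3. It was 2.14, 46.0 and 38.0 in intervention replicates 1 to 3, and 34.7 to 46.7 in the control libraries. In experimental replicate 1, experimental replicate 2 and intervention replicate 1, 24, 26 and 26 of the 30 were listed at 0, against none in the other 6 libraries. Of 40 neuronal genes only 8 passed the level filter, although the labels give hippocampal nerve cells as the cell type. In intervention replicate 3, 23 of the 40 were listed at 0, against 1 to 6 in every other library. Rbfox3, the nuclear marker NeuN, was at 0.06, 0.06 and 0.04 FPKM in experimental replicates 1 to 3 and at 0.08, 0.07 and 0 in intervention replicates 1 to 3. Tubb3, a tubulin of young neurons, was at 8.32 to 8.46 and 5.88 to 7.43 FPKM. The summed FPKM of the 40 was 33.0 to 35.0 in the experimental libraries, 27.7 to 32.1 in the intervention libraries and 49.8 to 59.4 in the control libraries. By contrast, 10 of 12 fibroblast and mesenchymal markers were tested. Summed FPKM of the 12 was 1296 to 1427 in the experimental, 1322 to 1710 in the intervention and 2573 to 2710 in the control libraries. Most of each sum came from S100a4, at means of 802 and 986 FPKM in the experimental and intervention groups, and Vim, at 316 and 303. Lum and Fap were at 0.03 FPKM or less in these 2 groups. The part of these traces in the results below was not tested beyond a fit with the presence of liver transcripts as a term, added after the data were seen. That fit called 2309 genes higher and 549 lower.

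**Figure D1:**
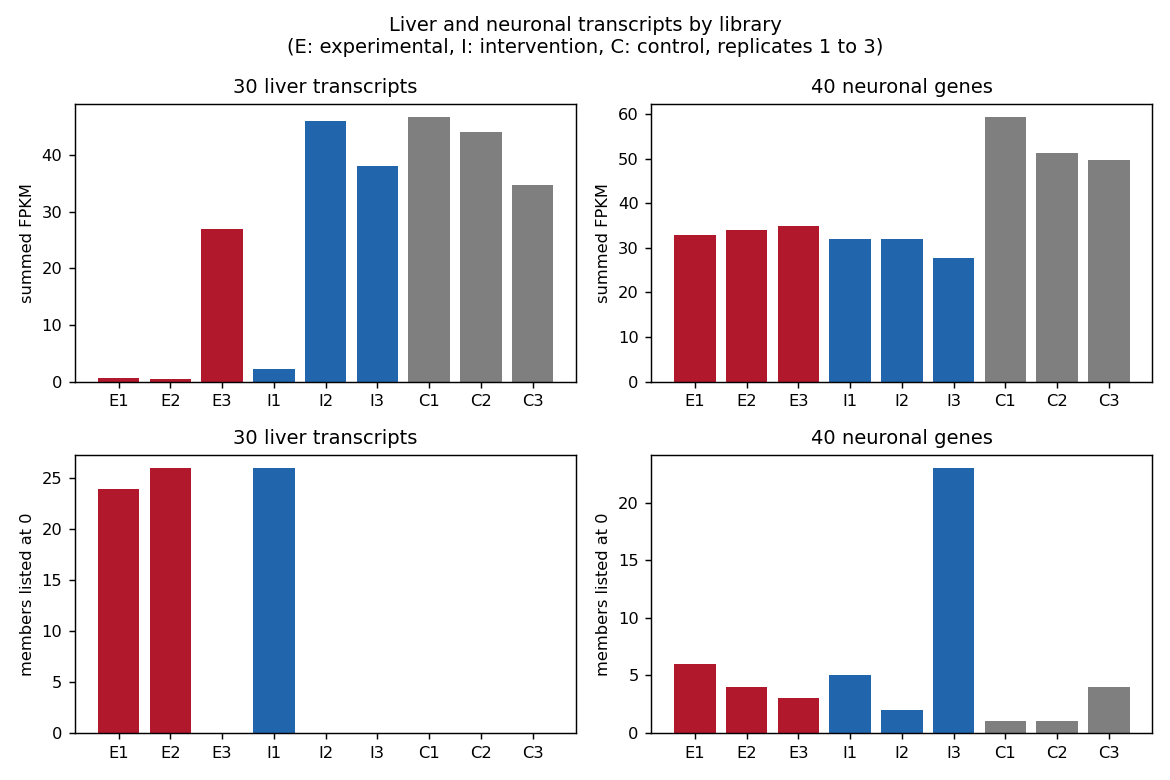
Summed FPKM (top) and number of members listed at 0 (bottom) for 30 liver transcripts and 40 neuronal genes in each of the 9 libraries. Liver transcripts were near 0 in 2 experimental libraries and 1 intervention library, and intervention replicate 3 listed 23 neuronal genes at 0.

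Of the 11974 genes, 2337 were called (19.5%), of which 1906 were higher (15.9%) and 431 lower (3.60%) in the intervention group. Most differences were small. At least 0.5 log2 units separated the groups for 116 of the higher and 84 of the lower genes, and at least 0.25 units for 1411 and 317. All 3 intervention values lay above all 3 experimental values for 4030 genes (33.7%) and below them for 1053 (8.79%). The surplus of higher genes moves with the scaling: the median difference of all genes was 0.095 as deposited. It became 0.004 once libraries were scaled by median ratios, which called 581 genes higher (4.85%) and 908 lower (7.58%). With quantile normalization 451 were called higher (3.77%) and 587 lower (4.90%). Each count of list members below stands against these shares of all genes. All 2337 calls kept their direction under both, and lists are given below relative to the median of all genes.

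The calls rested on 4 libraries. Leaving out experimental replicate 1, experimental replicate 3 or intervention replicate 1 left 1, 4 and 6 called genes, and leaving out intervention replicate 3 left 939, although 3355, 3375, 3161 and 3904 genes had an unadjusted p under 0.05. Leaving out experimental replicate 2 or intervention replicate 2 gave 2571 and 2505. In 1736 of the 2337 called genes (74.3%), experimental replicate 2 was the experimental library nearest to the intervention values. In 1517 (64.9%), intervention replicate 2 was the intervention library nearest to the experimental values. Slc7a11 was the 1 gene called in every fit without a library.

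**Figure D2:**
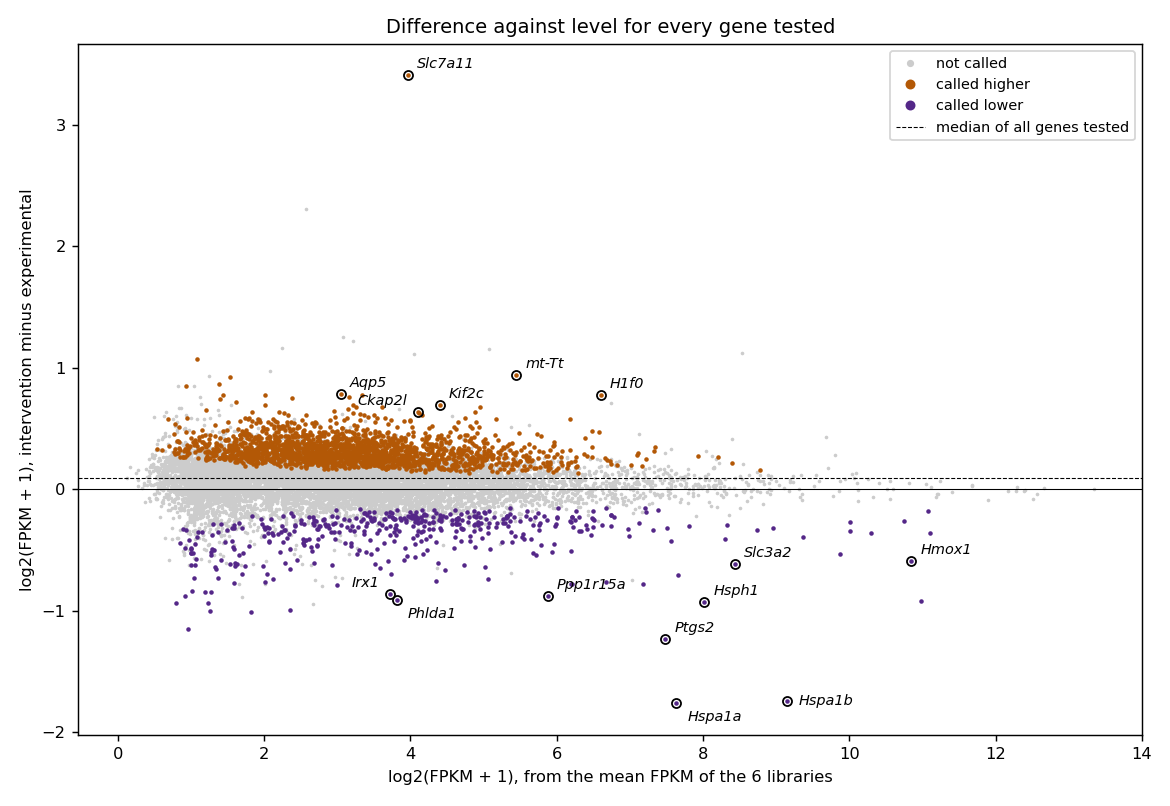
Difference between intervention and experimental libraries (vertical, log2(FPKM + 1)) against level (horizontal) for all 11974 genes tested, with called genes in colour. Slc7a11 stands at 3.41 and the inducible HSP70 genes near -1.75, while most called genes lie within 0.5 of 0.

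Slc7a11 (mm10 chr3:49892526-50443614, minus strand) carried the largest difference of all genes tested. Its FPKM was 1.71, 1.65 and 1.74 in experimental replicates 1 to 3 and 28.6, 25.4 and 29.1 in intervention replicates 1 to 3. Control replicates 1 to 3 held 19.2, 25.7 and 22.5. Every intervention value was thus more than 10 times every experimental value, and 2 of the 3 lay above the highest control value. The log2 difference was 3.41 (SE 0.09, adjusted p = 8.37e-08), a 16.3-fold ratio of means. Against control the intervention level was higher by 0.30 log2 units (adjusted p = 0.0174), a call made with the same intervention libraries.

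The 250 bases upstream of the Slc7a11 start (chr3:50443614-50443863, minus strand, GRCm38.p6, from RefSeq) are shown because this gene carries the largest difference. Capitals mark TGATGNAA, the amino acid response element bound by ATF4 dimers, searched on both strands. The 2 matches begin 66 and 47 bases before the start, on opposite strands, and do not overlap.
Slc7a11: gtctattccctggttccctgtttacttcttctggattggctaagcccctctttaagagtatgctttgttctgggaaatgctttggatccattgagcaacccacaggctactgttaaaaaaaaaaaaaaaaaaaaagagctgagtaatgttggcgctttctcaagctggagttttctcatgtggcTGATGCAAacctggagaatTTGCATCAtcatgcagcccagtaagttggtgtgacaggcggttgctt
This motif occurred in 1.79% of 10664 upstream windows of the same length, which covered 8400 tested genes, and in 16.3% of the 43 windows of the integrated stress response list. The antioxidant response element of NRF2, written TGACNNNGC, was not among the letters of the Slc7a11 window. It occurred in 11.6% of all windows, in 22.9% of the 48 windows of the NRF2 target list, and at close shares in lists with other roles (21.4% for mitotic kinesins, 19.4% for J-domain proteins). In all, 8 motifs were searched, all chosen after the expression values were seen, and each is given here or beside the list it concerns. A match describes letters only.

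**Figure D3:**
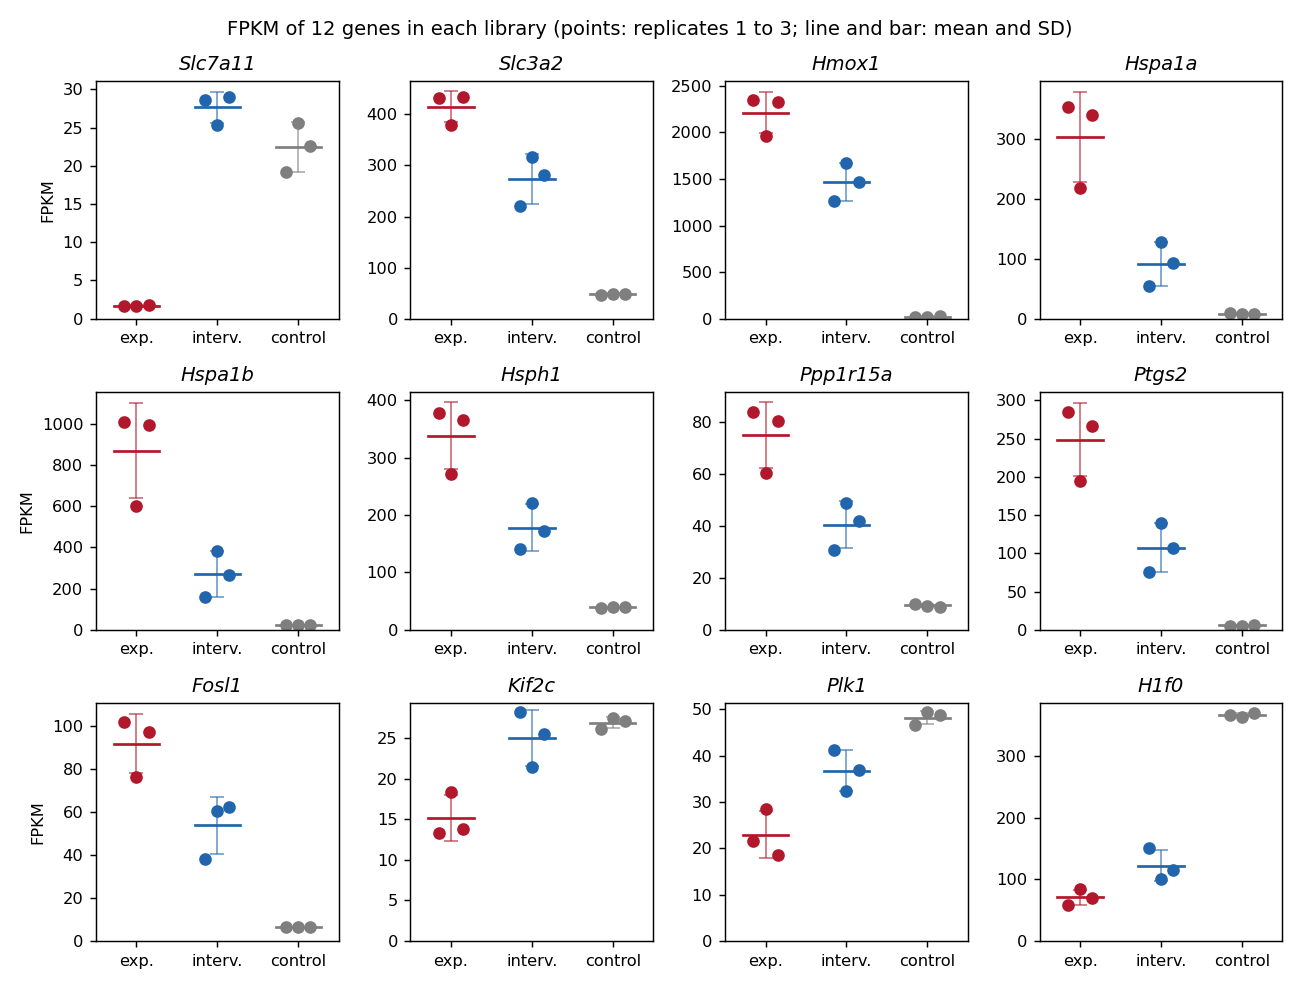
FPKM of 12 genes in each library by group, with the mean as a line and the SD as a bar, each panel on its own linear axis from 0. The experimental and intervention points do not overlap in any panel, and the intervention mean lies between the other means in every panel but that of Slc7a11.

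Other genes of cystine and glutathione handling moved in both directions and by much less. Of 23 tested members, 3 rose and 5 fell, or 2 and 6 after median-ratio scaling, and the list median equalled that of all genes to 2 decimals. Slc3a2, the heavy chain that partners Slc7a11, moved the opposite way. Its FPKM was 432, 380.1 and 433 in the experimental libraries, 221, 317 and 281 in the intervention libraries and 45.3, 49.2 and 47.5 in the control libraries. The difference was -0.61 (SE 0.11, adjusted p = 0.0153), with the groups apart but still far above control. Gclc, the catalytic subunit of the first enzyme of glutathione synthesis, fell from 68.7 ± 4.45 to 58.3 ± 2.23 FPKM (SD, n = 3 each). Chac1, which degrades glutathione, fell from 60.3 ± 3.05 to 51.7 ± 3.76. Mat2a, which makes S-adenosylmethionine, fell from 142 ± 17.3 to 109 ± 12.5, while Mat2b, its regulatory subunit, rose by 0.39 log2 units. Gpx8, an endoplasmic reticulum peroxidase, rose from 23.9 ± 2.11 to 31.4 ± 3.70, a call lost under both scalings, by median ratios and by quantiles. Gpx4 was not called, at 59.8, 68.1 and 61.7 and 83.9, 70.1 and 74.6 FPKM in the experimental and intervention libraries (adjusted p = 0.0621). Acsl4, which loads lipids with the polyunsaturated fatty acids that peroxidise, was not called either (26.9 and 24.7 FPKM, adjusted p = 0.141).

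The largest decreases among the genes named here were those of 2 inducible chaperone genes. In all, 6 genes were called lower by at least 1 log2 unit, and not all of them are named. Hspa1a, an inducible HSP70, was at 354, 218 and 339.7 FPKM in the experimental libraries, 54.5, 128 and 93.4 in the intervention libraries and 8.76, 7.66 and 8.20 in the control libraries. Hspa1b, its neighbour and near-identical copy, was at 1009, 603 and 994, 157, 380.2 and 268 and 23.8, 22.3 and 25.4. In both groups replicate 2 lay nearest to the other group, at the low end of the experimental and the high end of the intervention values. The differences were -1.76 (SE 0.27) and -1.74 (SE 0.29), each with an adjusted p of 0.0151. Reads of the 2 copies may be split between them by the authors' counting, so each is uncertain as a single gene. In bulk libraries, fewer cells with these transcripts and less of them per cell cannot be told apart.

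Their upstream sequences are shown because the pair moved together. The 250 bases before each start lie on the minus strand of GRCm38.p6, at chr17:34972157-34972406 for Hspa1a and chr17:34959239-34959488 for Hspa1b, from RefSeq. They were identical at 247 of 250 positions (98.8%). Capitals mark a pair of inverted heat shock element units, written GAANNTTC or TTCNNGAA, 104 bases before each start.
Hspa1a: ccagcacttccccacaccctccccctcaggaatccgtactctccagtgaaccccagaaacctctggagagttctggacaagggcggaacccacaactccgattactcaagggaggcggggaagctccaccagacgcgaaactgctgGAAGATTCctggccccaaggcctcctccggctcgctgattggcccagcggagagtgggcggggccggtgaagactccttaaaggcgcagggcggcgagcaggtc
Hspa1b: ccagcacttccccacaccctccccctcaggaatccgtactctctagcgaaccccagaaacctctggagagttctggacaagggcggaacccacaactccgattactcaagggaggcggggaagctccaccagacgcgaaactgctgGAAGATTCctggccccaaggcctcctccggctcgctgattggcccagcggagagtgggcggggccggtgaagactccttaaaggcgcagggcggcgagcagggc
Such a pair occurred in 9.91% of all upstream windows and in 31.8% of the 22 windows of the HSP70 and HSP110 list. Its share was 16.1% of the 31 windows of the J-domain list and 15% of the 20 of the HSP90 list. These lay near the 18.6% of the integrated stress response list and the 16.1% of the kinetochore list. The longer heat shock element with a further inverted GAA unit after the same spacing, which contains the pair, occurred in 0.384% of all windows. It occurred in 2 of the 22 HSP70 and HSP110 windows, 2 of the 31 J-domain windows and 0 of the 20 HSP90 windows. It was not among the letters of either window shown. The window of the co-chaperone Bag3, also searched, held 0 of the pairs and 0 of the longer elements.

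Of 23 tested HSP70 and HSP110 genes with their exchange factors and the mitochondrial chaperonin, 7 fell and 1 rose, or 10 and 0 after median-ratio scaling. The list median minus that of all genes was -0.17 log2 units (-0.21 to -0.14 when 1 library was left out). Hsph1, the HSP110 exchange factor, was at 377, 271 and 365 FPKM in the experimental and 140.0, 221 and 173 in the intervention libraries, a 1.90-fold lower mean. Bag3, a co-chaperone of HSP70 in autophagy, fell from 91.2 ± 13.0 to 52.8 ± 9.31 FPKM. Hspd1 and Hspe1, the mitochondrial chaperonin pair, had differences of -0.39 and -0.31, and Hspa8, the constitutive HSP70, of -0.27. The member that rose was Stub1, a ubiquitin ligase bound to chaperones (30.5 to 37.3 FPKM). The call of Stub1 was lost after median-ratio scaling and that of Hspa8 after quantile normalization.

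J-domain proteins deliver clients to HSP70. Of 24 tested, 4 fell and 4 rose, or 6 and 0 after median-ratio scaling. Dnajb1 was at 143, 103 and 135 FPKM in the experimental and 61.1, 90.3 and 72.7 in the intervention libraries, so the groups stayed apart. Dnajb4, Dnajb9 and Dnaja1 fell by 0.53, 0.49 and 0.45 log2 units. In the HSP90 list of 23 tested genes, 6 fell and 2 rose, or 8 and 0 after median-ratio scaling, and the median minus that of all genes was -0.17. It was -0.11 without experimental replicate 1 and -0.21 without experimental replicate 2. Hsp90aa1, the inducible HSP90, fell from 1108 ± 120.5 to 770.1 ± 121 FPKM, and Hsp90ab1, the constitutive form, from 2464 ± 175 to 1925 ± 184. The collagen chaperone Serpinh1 fell by 0.33 log2 units. Hsf1 itself was at 11.02 and 11.5 FPKM and was not called (adjusted p = 0.523). Of 14 tested subunits of the TRiC chaperonin and prefoldin, which fold actin and tubulin, 3 rose and 0 fell, or 0 and 2 after median-ratio scaling.

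Ubb, a polyubiquitin gene, was at 1467, 1318 and 1447 FPKM in the experimental, 984, 1135 and 1179 in the intervention and 439, 418 and 373 in the control libraries. It fell from 1411 ± 81.1 to 1099 ± 102 FPKM, and Zfand2a, an arsenite-inducible partner of the proteasome, from 182 ± 24.0 to 106 ± 20.00. Ubb has a pseudogene copy with an entry of its own, so reads may be split between them. In the ubiquitin and p97 list, 3 of 19 fell and 4 rose, or 5 and 1 after median-ratio scaling. Those that rose were Faf2, Usp5, Usp14 and Ube2c, the last a mitotic conjugating enzyme. The calls of Faf2, Usp5 and Usp14 were lost under both scalings. Of 38 proteasome genes, 10 rose and 0 fell, or 3 and 0 after median-ratio scaling. The largest of these was Psmg2, an assembly chaperone (6.46 to 8.85 FPKM), followed by Psme2, a subunit of the interferon-inducible activator, whose call was lost under both.

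Immediate early genes had the lowest median of the lists drawn, which hold at least 10 tested members and leave out the liver transcripts. Of 23 tested members of the EGR, IER and related families, 13 fell and 0 rose, against 3.60% of all genes called lower. The median minus that of all genes was -0.39 log2 units (-0.45 to -0.31 when 1 library was left out), and 15 fell after median-ratio scaling. Relative to the experimental mean of each gene, the list median minus that of all genes was 0.08, -0.11 and 0.06 in experimental replicates 1 to 3 and -0.49, -0.30 and -0.31 in intervention replicates 1 to 3. Ier3, an early gene that modulates survival, was at 276, 221 and 250.4 FPKM in the experimental, 127, 168 and 162 in the intervention and 22.8, 22.1 and 18.5 in the control libraries. Plk3, a stress kinase of the polo family, fell from 40.9 ± 5.96 to 24.1 ± 4.08 FPKM, and Zfp36, which destabilises cytokine mRNA, from 9.55 ± 1.02 to 6.63 ± 0.383. Klf4, a growth-arrest factor, fell from 31.4 ± 1.58 to 23.2 ± 1.79, with a control mean of 29.2.

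AP-1 is a dimer of FOS and JUN proteins. Of 10 tested subunits 4 fell and 0 rose, and the median minus that of all genes was -0.26. Fosl1 was at 102, 76.3 and 97.3 FPKM in the experimental, 38.4, 60.7 and 62.3 in the intervention and 6.65, 6.30 and 6.38 in the control libraries, and the groups did not overlap. Jun fell from 59.0 ± 6.97 to 40.8 ± 5.92 FPKM, Fos from 1.51 ± 0.211 to 0.690 ± 0.223 and Junb from 17.8 ± 1.51 to 14.6 ± 1.71. The call of Junb was lost after quantile normalization. The AP-1 site, written TGAGTCA or TGACTCA, occurred upstream in 3.11% of all windows, in 12 of the 355 windows of genes called lower (3.38%), in 0 of the 11 windows of the subunits themselves and in 5 of the 48 of the NRF2 target list. The SRF box known as CArG, a site of early gene induction, occurred in 1.03% of all windows, in 2 of the 24 windows of the immediate early list and in 3 of the 28 of the mitotic kinesin list.

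ERK signalling induces a set of genes that act as its own brakes. Of 16 tested MAP kinase phosphatases and Sprouty genes with related targets, 6 fell, 0 rose and 10 were not called, and the median minus that of all genes was -0.26. Dusp6, the phosphatase of ERK in the cytoplasm, was at 18.2, 14.96 and 17.2 FPKM in the experimental and 10.2, 12.4 and 12.5 in the intervention libraries. Dusp5, its nuclear counterpart, fell from 4.44 ± 0.366 to 2.29 ± 0.546 FPKM, Dusp4 from 62.4 ± 4.53 to 45.4 ± 6.39, and Etv5, a transcription factor downstream of ERK, from 17.0 ± 2.40 to 11.2 ± 2.72, a call lost after quantile normalization. Among 14 tested EGF receptor ligands, growth factors and receptors, 5 fell and 2 rose, or 6 and 0 after median-ratio scaling. The ligands Hbegf, Ereg and Areg fell from 1.91, 2.51 and 1.41 to 1.06, 1.497 and 0.747 FPKM, and Errfi1, the feedback inhibitor of the receptor, from 11.4 ± 1.22 to 7.67 ± 0.422. Those that rose were the sheddase Adam10 and the receptor Met, by 0.15 and 0.17 log2 units, calls lost under both scalings.

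Ptgs2, the inducible cyclooxygenase, fell 2.32-fold. Its FPKM was 285, 195 and 266 in the experimental, 75.3, 139 and 107 in the intervention and 5.54, 5.39 and 6.21 in the control libraries, and the lowest experimental value lay above the highest intervention value. The difference was -1.23 (SE 0.20, adjusted p = 0.0151). Of 14 tested prostaglandin enzymes and carriers, 2 fell and 2 rose, or 4 and 0 after median-ratio scaling. Besides Ptgs2, the carrier Slco2a1 fell, while Pla2g4a, the phospholipase that releases arachidonate, and the synthase Ptges2 rose by 0.27 and 0.28 log2 units, calls lost under both scalings.

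In the integrated stress response list, 14 of 38 tested genes fell and 2 rose, or 15 and 2 after median-ratio scaling. The median minus that of all genes was -0.17 (-0.22 to -0.13 when 1 library was left out). Ppp1r15a, the stress-induced subunit that leads a phosphatase to eIF2alpha, was at 83.8, 60.4 and 80.3 FPKM in the experimental and 30.7, 48.8 and 41.9 in the intervention libraries, a 1.85-fold lower mean. Sesn2, a stress-induced inhibitor of mTORC1, fell from 38.6 ± 3.82 to 24.5 ± 3.88 FPKM. Slc7a1, a carrier of cationic amino acids, fell from 51.5 ± 3.46 to 39.0 ± 3.06, and Ddit3, the factor CHOP, from 98.2 ± 4.42 to 82.2 ± 5.41. Atf4 itself was not called, at 296, 302 and 295 FPKM in the experimental and 307, 305 and 314 in the intervention libraries (adjusted p = 0.453). The members that rose were Slc7a11 and Eif2ak2, the kinase PKR, which interferon induces, from 6.46 ± 0.681 to 9.40 ± 0.870 FPKM. Slc7a11 thus stood apart in direction from 14 members of its own list, including Slc3a2, Chac1 and Ddit3. Among 17 tested amino acid transporters, which share members with that list, Slc7a11 rose and 5 fell.

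Of 32 tested chaperones and sensors of the endoplasmic reticulum, 5 fell and 0 rose, with 7 and 0 after median-ratio scaling. Hspa5, the chaperone BiP, was at 556, 516 and 568 FPKM in the experimental, 394, 512 and 416 in the intervention and 97.8, 104 and 100.2 in the control libraries, and its call was lost after quantile normalization. Atf6, a sensor of unfolded protein, fell from 26.4 ± 1.52 to 20.7 ± 1.71 FPKM, and Herpud1, of the degradation pathway, from 96.7 ± 4.07 to 81.8 ± 5.50.

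Of 43 tested NRF2 targets, 13 rose and 8 fell, a split that turned to 5 and 12 after median-ratio scaling and to 7 and 7 after quantile normalization. Hmox1, which breaks down heme, was at 2350.1, 1957 and 2326 FPKM in the experimental, 1266, 1674 and 1466 in the intervention and 22.2, 18.6 and 24.4 in the control libraries. The difference was -0.59 (SE 0.12, adjusted p = 0.0170). After quantile normalization it was -0.38 and not called (adjusted p = 0.0715). Osgin1, an oxidative stress inhibitor of growth, fell from 31.2 ± 2.36 to 20.1 ± 3.30 FPKM. Txnrd1, thioredoxin reductase, fell from 216 ± 13.1 to 160.5 ± 16.8, Srxn1, sulfiredoxin, from 354 ± 15.2 to 289 ± 27.8, and the autophagy receptor Sqstm1 from 1145 ± 51.9 to 904 ± 94.0. Nqo1, a quinone reductase, rose from 119 ± 3.90 to 137 ± 6.70, the glutathione transferase Gsta4 from 219.9 ± 12.2 to 266 ± 20.5, and Mgst1, a membrane-bound transferase, from 22.6 ± 2.24 to 32.6 ± 5.13. Idh1, which makes NADPH in the cytosol, rose from 22.2 ± 1.35 to 32.3 ± 4.59. The transcription factor gene Nfe2l2 fell from 41.8 ± 1.02 to 35.8 ± 1.84 FPKM and Keap1, its inhibitor, rose from 16.5 ± 1.67 to 19.6 ± 0.965. The calls of Nqo1, Gsta4 and Keap1 were lost under both scalings and that of Srxn1 after quantile normalization. Bach1, the heme-sensing repressor of the same sites, was not called (16.4 and 14.0 FPKM, adjusted p = 0.0796).

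Of 22 tested genes of heme handling, 6 rose, 3 fell and 13 were not called, or 1 rose and 5 fell after median-ratio scaling. Hmox1 and the exporter Flvcr1 fell, the latter from 26.8 ± 1.64 to 23.1 ± 1.56 FPKM. The heme-regulated clock repressor Nr1d1 fell from 17.0 ± 0.630 to 13.6 ± 1.34. The synthesis enzymes Urod, Alad and Ppox rose by 0.33, 0.28 and 0.25 log2 units. Hmox2, the constitutive oxygenase, rose by 0.34, and Slc48a1, which carries heme out of lysosomes, by 0.31. These 5 calls were lost after median-ratio scaling, and all but that of Slc48a1 after quantile normalization. In iron handling 3 of 24 rose and 2 fell, or 2 and 4 after median-ratio scaling, so the share called higher lay below the 15.9% of all genes. Tfrc, the transferrin receptor, was at 23.8, 16.8 and 20.7 FPKM in the experimental, 11.8, 15.7 and 13.8 in the intervention and 56.3, 59.5 and 56.9 in the control libraries, so it fell further from control. The ferritin chains were not called. Fth1 was at 1303, 1287 and 1319.8 in the experimental and 1237, 1239.9 and 1271 in the intervention libraries (adjusted p = 0.448), and Ftl1 at 2364, 2339 and 2365 and 2511, 2453 and 2426 (adjusted p = 0.328). Ferritin genes have near-identical pseudogenes and are uncertain as single genes.

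Of 40 tested nucleolar and ribosome biogenesis genes, 8 fell, 1 rose and 31 were not called, against 3.60% of all genes called lower. After median-ratio scaling 16 fell and 0 rose, against 7.58% of all genes, and as deposited the median minus that of all genes was -0.19. Nolc1, a nucleolar scaffold, fell from 81.4 ± 2.94 to 68.0 ± 3.89 FPKM and the helicase Ddx21 from 107 ± 5.20 to 87.6 ± 8.04. Of 19 tested nuclear noncoding RNAs and small nucleolar RNA host genes 3 fell and 0 rose, and the median minus that of all genes was -0.28. Of 47 ribosomal protein genes limma called 0, with 0 at an unadjusted p under 0.05 and 3 called after quantile normalization. Other lists led by decreases were glycolysis and hypoxia (7 of 35 fell, 2 rose) and extracellular matrix (6 of 37 fell, 1 rose). The lactate carrier Slc16a1 fell from 52.5 ± 3.70 to 39.3 ± 3.30 FPKM, and Timp3, a metalloproteinase inhibitor, from 13.6 ± 0.625 to 10.8 ± 0.142.

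Mitotic lists held the largest shares of members called higher among the lists drawn. Of 30 tested kinesins and spindle genes 26 rose and 0 fell, of 30 kinetochore and centromere genes 24 and 0, and of 37 mitotic kinases, cyclins and ubiquitin ligase subunits 20 and 0, against 15.9% of all genes called higher. After median-ratio scaling the counts were 20, 8 and 8, with 0 lower in each. The medians lay 0.31, 0.20 and 0.16 log2 units above that of all genes, and 0.25 to 0.35 for the kinesin list when 1 library was left out. By library, the kinesin list median minus that of all genes was -0.04, 0.09 and -0.07 in experimental replicates 1 to 3 and 0.36, 0.21 and 0.29 in intervention replicates 1 to 3. Experimental replicate 2 was the highest of its group and intervention replicate 2 the lowest of its own.

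Kif2c, a kinesin that depolymerises microtubules at kinetochores, was at 13.3, 18.4 and 13.8 FPKM in the experimental, 28.3, 21.5 and 25.5 in the intervention and 26.2, 27.5 and 27.2 in the control libraries. The difference was 0.69 (SE 0.12, adjusted p = 0.0153). Ckap2l, a spindle protein, was at 12.1, 13.5 and 11.8 and 21.0, 18.7 and 19.7 FPKM, with a smaller adjusted p of 0.00880. Kif22, a chromosome-bound motor, rose by 0.61 log2 units, and Hmmr, a spindle pole protein, from 11.9 ± 0.929 to 17.9 ± 1.61 FPKM. At the kinetochore, Cenpa, the centromeric histone, rose from 5.94 ± 0.580 to 8.86 ± 1.31, and Bub1b, a checkpoint protein, from 18.5 ± 2.59 to 25.9 ± 1.90. Plk1, the polo kinase of mitotic entry, was at 21.6, 28.5 and 18.6 FPKM in the experimental, 41.2, 32.3 and 36.9 in the intervention and 46.6, 49.4 and 48.8 in the control libraries. Ccnb1, cyclin B1, was at 19.95, 27.1 and 19.8, 40.02, 30.7 and 33.9 and 29.5, 32.8 and 32.3 FPKM in the same order, so its highest experimental value lay below its lowest intervention value. Cdc20, the activator of the anaphase ligase, rose from 79.3 ± 8.60 to 110.3 ± 12.8, with a control mean of 110.2.

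The upstream 250 bases of Ccnb1 (chr13:100786487-100786736, minus strand, GRCm38.p6, from RefSeq) are shown as an example of a letter pattern frequent in these lists. Capitals mark CCAAT, the box bound by NF-Y, 99 and 67 bases before the start.
Ccnb1: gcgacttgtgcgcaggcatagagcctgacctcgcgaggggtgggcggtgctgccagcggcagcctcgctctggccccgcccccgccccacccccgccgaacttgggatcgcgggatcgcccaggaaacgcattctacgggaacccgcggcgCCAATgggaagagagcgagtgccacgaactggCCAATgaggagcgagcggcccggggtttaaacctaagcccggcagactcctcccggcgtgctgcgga
CCAAT on either strand occurred in 36.9% of all 10664 windows. It occurred in 71.4% of the windows of the kinesin list, 72.4% of the mitotic kinase list and 64.5% of the kinetochore list. The core of the cell cycle homology region, TTTGAA or TTCGAA, occurred in 12.2% of all windows and in 42.9%, 37.9% and 22.6% of the same lists. The Ccnb1 window shown held 0 matches to this core. The windows of Plk1 and Kif2c, also searched, held 1 and 0 CCAAT boxes and 0 and 1 matches to the core. The Kif2c window (chr4:117178773-117179022, minus strand) precedes a RefSeq start but lies inside the GENCODE span of the gene (chr4:117159639-117182639). The Ccnb1 window shown reaches partly into the GENCODE span of its gene (chr13:100778650-100786570).

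Of 47 tested DNA replication genes 11 rose and 2 fell, a split that turned to 3 and 9 after median-ratio scaling. Rfc1, of the clamp loader, rose from 20.2 ± 0.879 to 24.9 ± 1.23 FPKM, while the origin proteins Orc1 and Cdc6 fell by 0.28 and 0.26 log2 units. Of 34 homologous recombination and Fanconi genes 13 rose and 1 fell, or 5 and 1 after median-ratio scaling. The 1 that fell was Brca1, from 22.1 ± 1.07 to 18.5 ± 1.12 FPKM. Among 24 tested G1/S cyclins, inhibitors and E2F genes, 5 rose and 0 fell, or 4 and 3 after median-ratio scaling. Those that rose included both Ccnd1, cyclin D1, from 14.8 ± 1.52 to 19.2 ± 0.428, and Cdkn1b, the inhibitor p27, from 10.6 ± 1.06 to 14.4 ± 1.48. In the p53 and growth arrest list, 6 of 25 fell and 5 rose, or 7 and 3 after median-ratio scaling. H1f0, the linker histone of resting cells, was at 58.5, 83.6 and 69.9 FPKM in the experimental, 151, 101 and 115 in the intervention and 366, 363 and 369.7 in the control libraries, so its 3 groups did not overlap.

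Of 30 tested cholesterol synthesis genes 14 rose, 0 fell and 16 were not called, or 5 and 0 after median-ratio scaling, and the median lay 0.14 above that of all genes. Acat2, a thiolase at the start of the pathway, was at 54.2, 64.6 and 53.2 FPKM in the experimental, 98.6, 78.7 and 81.8 in the intervention and 218, 233 and 219 in the control libraries. Hmgcs1, the next enzyme, rose from 36.5 ± 2.20 to 50.8 ± 6.41 FPKM, both below its control mean of 142, and Fdps, which makes farnesyl diphosphate, rose from 58.7 ± 2.48 to 73.4 ± 4.46. Fatty acid genes were 9 higher and 0 lower of 31, but 2 and 3 after median-ratio scaling, with Acadm, of beta-oxidation, from 4.96 ± 0.200 to 7.30 ± 0.866.

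Of 45 tested nuclear oxidative phosphorylation genes 15 rose, 0 fell and 30 were not called, against 15.9% of all genes called higher, with a median 0.12 above that of all genes. After median-ratio scaling 3 rose and 0 fell, near the 4.85% of all genes called higher there. Ndufa9, of complex I, rose from 16.6 ± 0.840 to 22.5 ± 1.75 FPKM and Sdhc, of complex II, from 13.6 ± 0.521 to 17.6 ± 0.685. Of 37 mitochondrial ribosomal protein genes 13 rose and 0 fell, or 4 and 0 after median-ratio scaling, with Mrps34 from 7.13 ± 1.03 to 11.5 ± 2.11. In the tricarboxylic acid cycle 9 of 25 rose and 0 fell, or 3 and 1 after median-ratio scaling, with Suclg1 from 6.11 ± 0.458 to 8.49 ± 0.220. Of 13 mitochondrially encoded protein genes limma called 0, with 0 at an unadjusted p under 0.05, 1 called after quantile normalization and differences of -0.09 to 0.05. Of 24 tested mitochondrial tRNAs and rRNAs, 3 rose and 0 fell, or 2 and 5 after median-ratio scaling, while the median minus that of all genes was -0.16. The groups did not overlap for 4 members higher and 6 lower in the intervention libraries. The largest of the 3, the tRNA gene mt-Tt, was at 26.5, 37.3 and 23.9 FPKM in the experimental and 61.2, 53.8 and 53.4 in the intervention libraries (adjusted p = 0.0161), and mt-Tl2 and mt-Tk rose by 0.39 and 0.36 log2 units, the latter a call lost under both scalings. Such short RNAs are captured unevenly by mRNA libraries.

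Of 19 tested interferon-stimulated and antigen presentation genes, 9 rose, 0 fell and 10 were not called, or 4 and 0 after median-ratio scaling, with a median 0.18 above that of all genes. The median was 0.11 without experimental replicate 1 and 0.16 to 0.19 when any other library was left out. Ifit2, an antiviral effector, was at 7.18, 10.2 and 7.69 FPKM in the experimental, 18.2, 11.8 and 12.4 in the intervention and 42.0, 43.6 and 43.9 in the control libraries. Ifit1 was at 0.3, 0.45 and 0.13 and 1.11, 0.81 and 0.86 FPKM, so all its experimental values lay below 1 FPKM. In the NF-kB and cytokine list, 5 of 22 rose and 2 fell, or 2 and 3 after median-ratio scaling. The neutrophil chemokine Cxcl5 rose from 12.6 ± 2.17 to 20.05 ± 4.35 FPKM, and the monocyte chemokines Ccl7 and Ccl2 from 27.8 ± 3.06 and 46.1 ± 6.97 to 42.1 ± 6.92 and 62.6 ± 9.37. The call of Ccl2 was lost under both scalings.

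**Figure D4:**
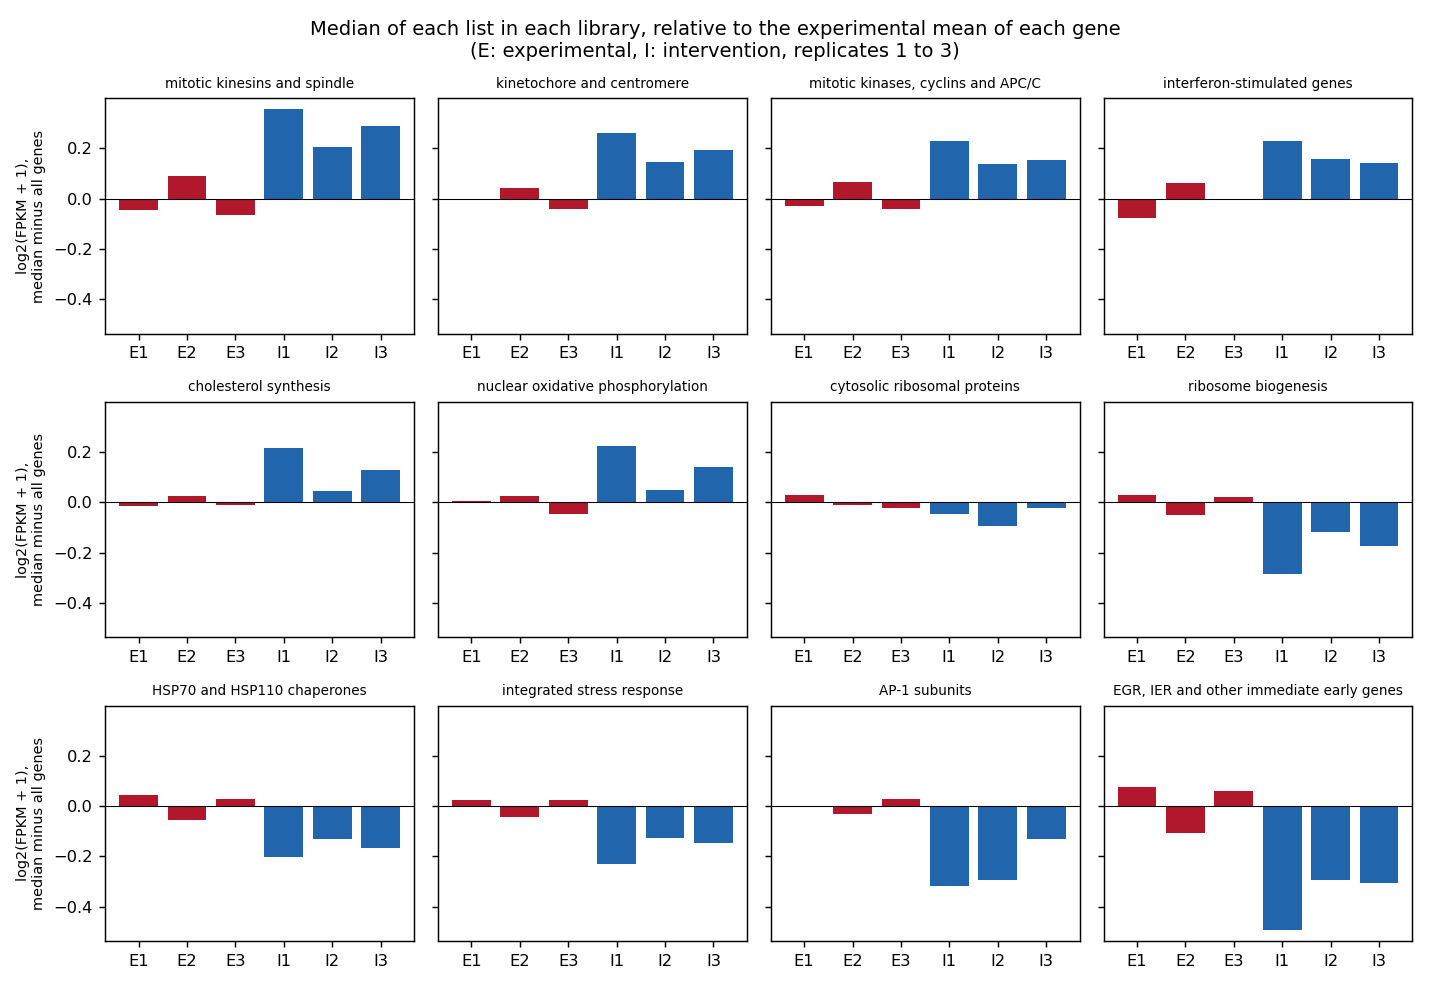
Median over the members of 12 gene lists in each experimental (red) and intervention (blue) library, relative to each gene's experimental mean and to the median of all genes, on the log2(FPKM + 1) scale. Mitotic lists stand above 0 and immediate early genes below 0 in all 3 intervention libraries, and in most panels intervention replicate 1 is farthest from 0.

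**Figure D5:**
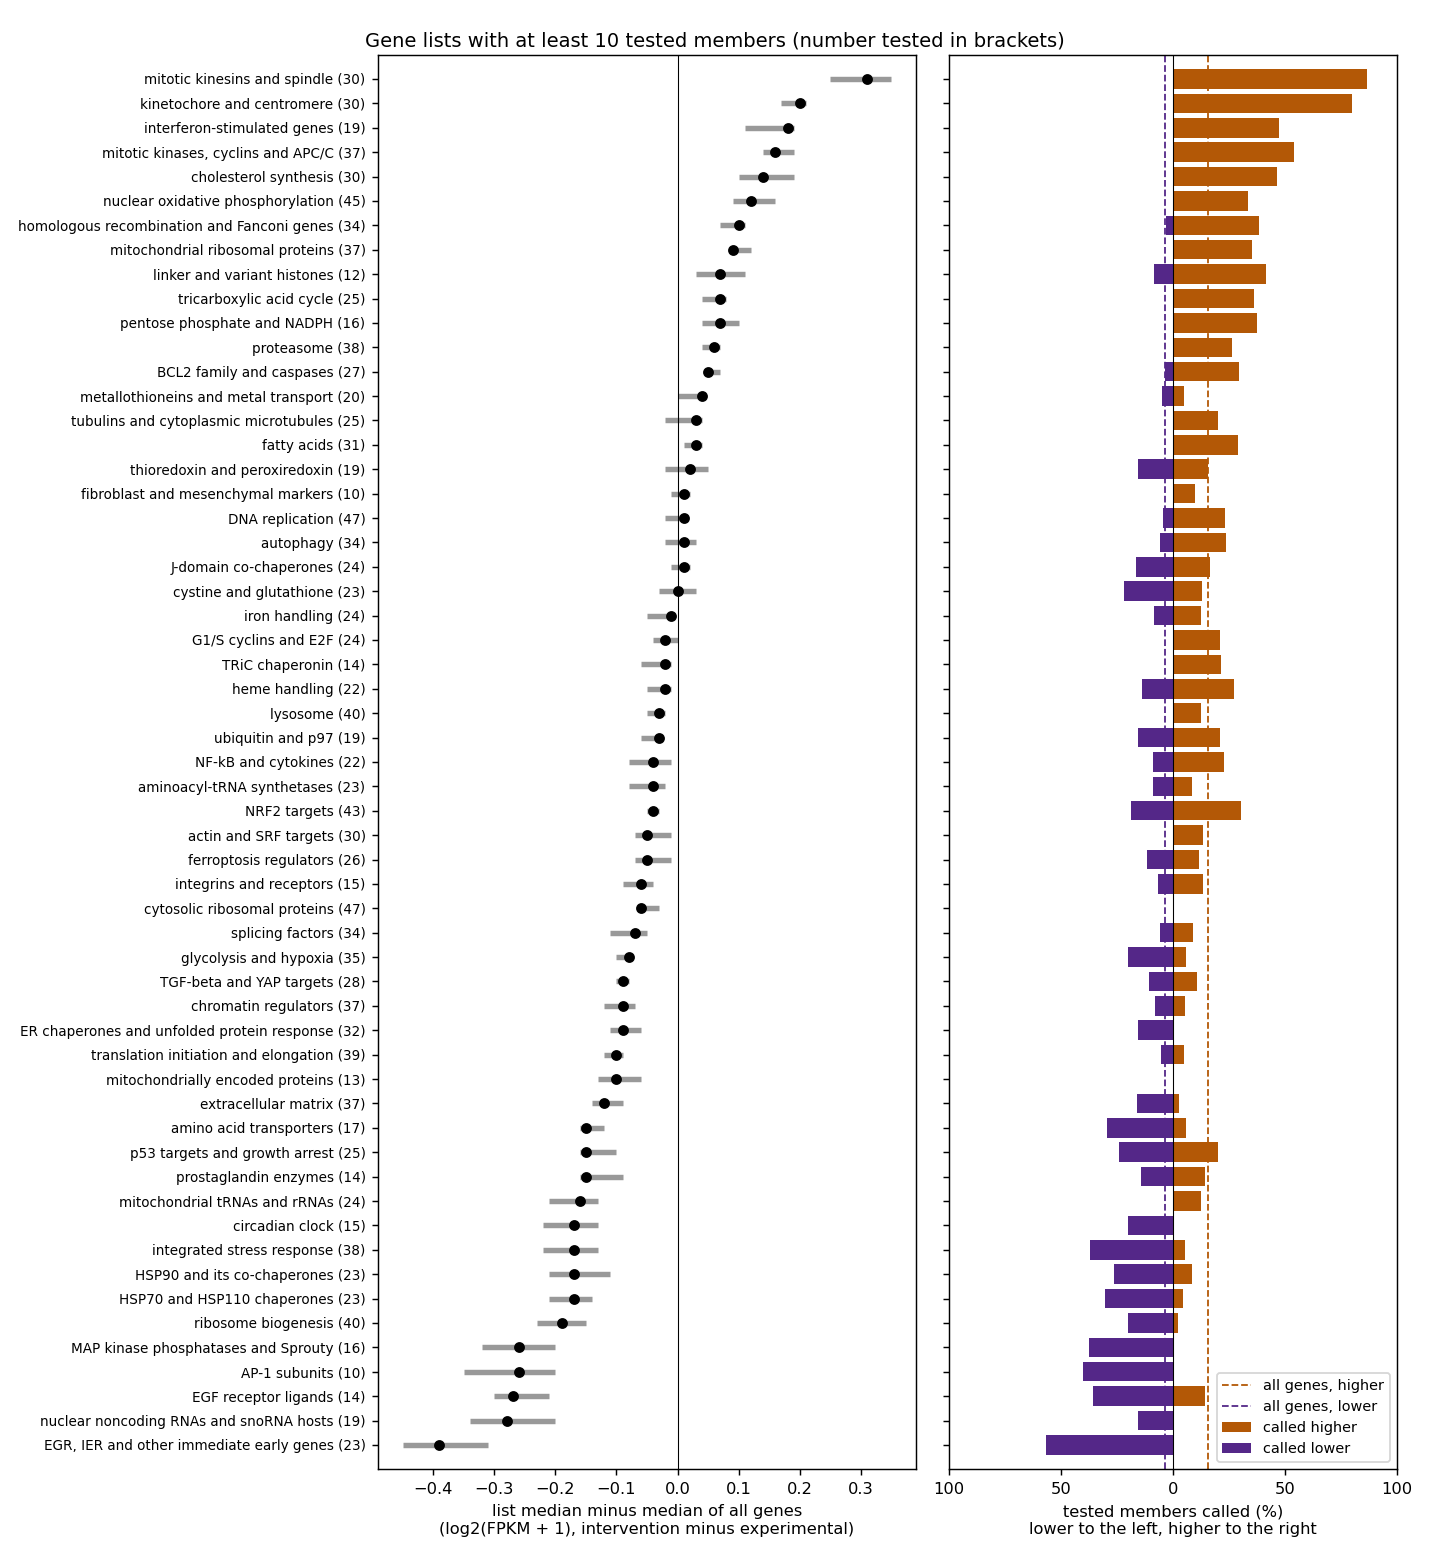
Left: median difference of each list minus that of all genes (points), with the range over the 9 fits that left out a library (bars). Right: percentage of tested members called higher and lower, with dashed lines at 15.9% and 3.60%, the shares of all genes. The lists drawn have at least 10 tested members and span -0.39 for immediate early genes to 0.31 for mitotic kinesins. The list of 30 liver transcripts was left out. It had 16 tested members and a median 0.52 above that of all genes.

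Further single genes came from the part of the naming rule that ranks by size of difference, which left out predicted and ribosomal protein genes. Aqp5, a water channel, was at 4.37, 5.43 and 5.13 FPKM in the experimental and 13.4, 7.14 and 8.25 in the intervention libraries. Gas1, a growth arrest protein of the membrane, rose from 6.28 ± 0.749 to 10.7 ± 1.95 FPKM, and Ugt1a6a, a glucuronosyltransferase, from 2.84 ± 0.324 to 5.61 ± 1.78, a call lost after quantile normalization. Among decreases, Irx1, a homeobox factor, was at 16.8, 14.1 and 17.1 FPKM in the experimental and 6.65, 9.37 and 9.23 in the intervention libraries. Phlda1 was at 20.9, 12.9 and 18.4 and 6.42, 10.8 and 9.18. Of the markers of other cell types, limma called 0 of 8 tested neuronal genes and 0 of 3 tested astrocyte markers (1 and 0 at an unadjusted p under 0.05). Of 10 fibroblast markers 1, Pdgfra, rose, by 0.24 log2 units, a call lost under both scalings and also the 1 call among 2 tested oligodendrocyte and endothelial markers. Of 2 tested microglia and blood markers 1 rose, Tmem119, from 0.930 ± 0.171 to 1.63 ± 0.331 FPKM with the groups apart. Of 2 tested choroid plexus markers 1 rose, Ttr. Ttr was at 0.11, 0 and 1.06 FPKM in the experimental and 1.62, 2.60 and 1.26 in the intervention libraries. It is also among the 30 liver transcripts, and its highest experimental value was in experimental replicate 3, where they were present. With their presence as a term its adjusted p was 0.0321.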

How the data were processed

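RNA from 9 HT22 libraries was sequenced, 3 per group. The labels' protocols name an RNeasy kit for RNA and a SMARTer mRNA-Seq kit for the libraries. The authors deposited FPKM for 29756 entries, written with 2 decimals, on the genome build mm10 per the submitters' processing notes. Aligner, counter, annotation and strandedness were not given in the sources used here, so near-identical and overlapping genes are uncertain. Depth is unknown, whole reads could not be recovered, and precision rests on the spread between replicates.

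Of entries that share a symbol, the one with the highest mean kept it. An entry was tested at 1 FPKM or more in at least 3 libraries, which left 11974. Groups were compared on log2(FPKM + 1) with limma 3.58.1 in R 4.3.3, with a mean-variance trend. All 9 libraries entered 1 fit, 2-sided, with Benjamini-Hochberg adjustment. A check on simulated data drew each gene independently, so it could not cover deviations shared by many genes of a library. Alternatives were another pseudocount, other filters and scalings, 6 libraries only, a replicate block, no trend and each library left out.

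Genes were named by a rule. It took up to 15 higher and 15 lower called genes of the largest difference with groups apart and a mean of at least 5 FPKM in the higher group. Predicted genes, clone names, ribosomal protein genes and pseudogenes with names ending in -ps were left out, so genes of larger difference may be missing. The rule also took up to 4 members per list with the smallest adjusted p, plus members called against the list's direction. It further took 17 genes of stress and iron biology. Alad, Chac1, Faf2, Gsta4, Hspa8, Hspd1, Hspe1, Mat2a, Mgst1, Nqo1, Ppox, Psme2, Urod, Usp14 and Usp5 were named after their values were seen. Some genes that the rule names are not reported here. The comparison, rule and lists were chosen with earlier results of these data known. Gene positions are from GENCODE M21 (mm10) and upstream sequences from RefSeq (GRCm38.p6).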

Additional observations from a re-analysis of the deposited data

How the results depend on the processing

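The count of 2337 called genes (1906 higher, 431 lower) fell to 358 (273 and 85) with no filter on low values, 1489 (581 and 908) with median-ratio scaling and 1038 (451 and 587) with quantile normalization. Without 1 library it ranged from 1 to 2571, from 1 to 2066 higher and from 0 to 505 lower. The low ends came without experimental replicate 1 (1), experimental replicate 3 (4) or intervention replicate 1 (6), and leaving out intervention replicate 3 gave 939 (771 and 168). Genes whose values do not overlap numbered 5083. Those counts stayed within 1.5 times with log2(FPKM + 0.1), only genes of mean FPKM 5 or more, TPM, 6 libraries only and no trend. Same-numbered experimental and intervention libraries had correlated deviations of -0.03, -0.18 and -0.01, and 0 of 6 libraries correlated best with their own number, so the numbers were not taken as pairs. The replicate block gave 1268 calls (1044 higher and 224 lower).

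Of the 139 tested genes named, 131 were called, and those called kept their sign in every setting that tested them. Of them, 21 lost the call after median-ratio scaling, 27 after quantile normalization, 100 with no filter on low values and 32 with the replicate block. Nearly all lost it without experimental replicate 1 (130), experimental replicate 3 (129) or intervention replicate 1 (128), and 43 without intervention replicate 3. Hmox1 lost it with no filter (-0.59, adjusted p = 0.0641), after quantile normalization (-0.38, 0.0715) and without experimental replicate 1, experimental replicate 3 or intervention replicate 1 (-0.55, -0.56 and -0.49, adjusted p = 0.0663, 0.0696 and 0.0656). Atf4, Ftl1 and Hsf1, which were not called, turned to -0.06, -0.05 and -0.05 after median-ratio scaling, and Hsf1 to -0.04 after quantile normalization. The causes were not tested. Depth is unknown, and low genes rest on values with 2 decimals.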

Other observations

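Of 27 tested genes of the BCL2 family, caspases and their inhibitors, 8 rose and 1 fell, or 2 and 2 after median-ratio scaling. Bak1, a pore-forming death effector, rose from 28.8 ± 2.39 to 36.2 ± 1.79 FPKM (SD, n = 3 each), and Bcl2l11, the death activator BIM, fell from 4.91 ± 0.505 to 3.78 ± 0.191. Of 16 tested pentose phosphate and NADPH genes 6 rose and 0 fell, or 3 and 0 after median-ratio scaling. Idh2, the mitochondrial source of NADPH, rose from 53.3 ± 4.16 to 68.4 ± 4.65 FPKM. Autophagy genes were 8 higher and 2 lower of 34, or 2 and 3 after median-ratio scaling. The kinase Tbk1 rose from 25.9 ± 1.01 to 32.2 ± 1.55 FPKM, against the decrease of the receptor Sqstm1.

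Among 30 tested actin and SRF targets 4 rose and 0 fell, or 1 and 2 after median-ratio scaling. The share called higher lay below the 15.9% of all genes, and the median minus that of all genes was -0.05. Cav2, a caveolin, was at 8.49, 9.35 and 6.89 FPKM in the experimental, 14.8, 10.8 and 12.1 in the intervention and 39.1, 41.6 and 42.4 in the control libraries. Of 28 TGF-beta and YAP targets 3 rose and 3 fell, or 1 and 5 after median-ratio scaling. Ankrd1, a YAP target, rose from 7.74 ± 0.297 to 11.5 ± 2.22 FPKM, with a control mean of 40.1, a call lost after quantile normalization. Clock genes fell in 3 of 15 tested cases and rose in 0, with Cry2 from 5.67 ± 0.909 to 3.89 ± 0.313. Brd2, a reader of acetylated histones, fell from 93.6 ± 4.66 to 74.5 ± 4.55, in a list of 37 chromatin regulators with 2 higher and 3 lower.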
